A study of Mus musculus with 18 samples.

Results

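The 10 genes followed here encode secreted Wnt proteins or R-spondins, and they were read in 18 libraries of mouse bile duct cells: Wnt2, Wnt4, Wnt5a, Wnt7a, Wnt7b, Wnt9b, Wnt10a, Wnt11, Rspo1 and Rspo3. They were taken by name, 10 of the 55401 genes counted, and all 10 were found once. The libraries hold polyA RNA of primary cholangiocytes, the biliary epithelium, captured on beads with an antibody to EpCAM from the minced biliary tree that was left after the parenchyma of perfused livers had been taken away. The 6 groups have 3 libraries each: PLD mice treated with CPTH6, PLD mice treated with ML324, untreated PLD mice at 2 months and at 1 month after tamoxifen, and WT mice at 2 months and at 1 month after tamoxifen. PLD stands for polycystic liver disease, in which ducts grow into fluid-filled cysts; the labels name neither the altered gene nor what the tamoxifen acts on. CPTH6 is known as a blocker of the acetyltransferases Kat2a and Kat2b, and ML324 as a blocker of the demethylases of the KDM4 family. The titles of the treated libraries give 3 months, no untreated PLD or vehicle group of that age is among these libraries, and dose and length of treatment are not given in the sources used here. The labels do not say whether the replicates of a group are separate mice, so each p-value measures the spread between these libraries only, which may be technical.

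Wnt proteins are lipid-modified signals that act over short distances. They are given their lipid by Porcn, carried to the cell surface by Wls, and bind Frizzled receptors together with Lrp5 or Lrp6, which stabilises beta-catenin and switches on targets such as Axin2; some, such as Wnt5a and Wnt11, act mostly through beta-catenin-independent routes that use Ror2 or Ryk. R-spondins do not bind Frizzled. They bind Lgr4, Lgr5 and Lgr6 and take the ubiquitin ligases Znrf3 and Rnf43 off the surface, so that a cell keeps more Wnt receptors. In liver, endothelial cells of the central vein and sinusoids are a known source of Wnt2, Wnt9b and Rspo3, which maintain the pericentral programme of hepatocytes, whereas Wnt7a and Wnt7b are best known as epithelial and neural signals and are induced in bile ducts in biliary injury.

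Library totals ran from 16345740 to 29277311 assigned counts. A list of 20 cholangiocyte markers was present in every group, with summed levels from 23530 to 24510 CPM (CPM is a gene's count scaled to a common library size) in PLD at 2 months and from 7250 to 10590 CPM in WT at 2 months. Markers of other cells were present as well, some higher in WT and some higher in PLD. The 16 endothelial markers summed to 689.6 to 1737 CPM in PLD and 9360 to 16630 CPM in WT at 2 months, the 20 stellate cell and fibroblast markers to 3997 to 8314 CPM in PLD and 6976 to 14810 CPM in WT. The sums of the 12 hepatocyte markers ran the other way, with 4017 to 6475 CPM in PLD and 1141 to 1560 CPM in WT. So did those of the 8 mesothelial markers, with 1090 to 1331 CPM in PLD and 103.6 to 138.7 CPM in WT. Gene by gene the mesothelial list did not follow its sum: in the test given below, 6 of 8 markers were lower in PLD and 2 higher. Of the hepatocyte markers, 5 were higher and 3 lower. No marker of these lists was at 0 in all 3 libraries of a group. There were 3 libraries that stood apart. WT replicate 3 at 1 month had 2812 CPM of fibroblast markers, against 16140 and 18000 CPM in the other WT libraries of that time. It also had 15690 CPM of cholangiocyte markers, against 8295 and 7907 CPM, and 2802 CPM of endothelial markers, against 5136 and 7403 CPM. Its 8 smooth muscle markers summed to 1622 CPM, against 12430 and 6776 CPM. ML324 replicate 2 had 822.5 CPM of endothelial markers, against 169.3 and 195.5 CPM in the other ML324 libraries. In WT replicate 1 at 2 months 40039 genes had a count, against 22780 to 30332 in every other library. In such bulk RNA, fewer cells of a type and less RNA per cell cannot be told apart.

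RefSeq start sites were held for 6 of the 10 genes. The 250 bases before the start of Wnt7a (chr6:91411354-91411603, minus strand), Wnt9b (chr11:103749822-103750071, minus strand) and Wnt11 (chr7:98834862-98835111, plus strand), all in GRCm38.p6, are shown because Wnt7a rose most and Wnt9b fell most in PLD against WT at 2 months, and Wnt11 held the only motif match. Capitals mark the motif match.
Wnt7a: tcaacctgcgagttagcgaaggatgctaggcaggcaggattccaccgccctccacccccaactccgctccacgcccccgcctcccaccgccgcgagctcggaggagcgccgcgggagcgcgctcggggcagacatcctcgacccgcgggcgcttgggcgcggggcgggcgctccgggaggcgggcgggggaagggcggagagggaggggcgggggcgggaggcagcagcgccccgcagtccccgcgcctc
Wnt9b: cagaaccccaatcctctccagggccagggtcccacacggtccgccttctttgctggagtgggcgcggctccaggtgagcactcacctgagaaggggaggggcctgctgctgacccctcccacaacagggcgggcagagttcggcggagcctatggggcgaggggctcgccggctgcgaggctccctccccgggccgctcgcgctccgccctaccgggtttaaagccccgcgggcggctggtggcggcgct
Wnt11: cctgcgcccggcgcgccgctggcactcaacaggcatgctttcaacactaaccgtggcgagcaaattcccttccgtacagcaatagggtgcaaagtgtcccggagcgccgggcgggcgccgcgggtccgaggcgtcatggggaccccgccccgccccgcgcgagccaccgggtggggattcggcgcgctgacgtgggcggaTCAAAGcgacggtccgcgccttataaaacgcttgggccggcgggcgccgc
All of these windows were rich in G and C, with 77.6% for Wnt7a, 72.0% for Wnt9b and 70.8% for Wnt11, against a median of 52.4% over 32851 windows of 27025 genes. The windows of Wnt4 (85.2%), Rspo1 (66.8%) and Wnt2 (63.6%) lay above that median too. Both strands were searched for CTTTGA (TCF/LEF, in 13.8% of all windows), GGAATG (TEAD, 12.6%), TGANTCA (AP-1, 6.75%), AGATAA (the site of GATA factors, 9.99%), CCGGAAG (ETS, 6.91%) and the palindromic oestrogen response element (0.0639%). The only match was TCAAAG, the reverse complement of the TCF/LEF letters, 50 bases before the start of Wnt11. A second Wnt11 start, with 56.8% G and C in its window, had no match.

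At 2 months, PLD libraries carried a different set of Wnt transcripts from WT libraries. Wnt7a, Wnt7b, Wnt10a, Wnt11 and Wnt4 were higher in PLD, Wnt9b, Rspo3, Wnt2 and Rspo1 were lower, and Wnt5a did not pass the test. Thus 5 of 10 genes rose, where 19.7% of the 17749 genes tested were called higher (edgeR quasi-likelihood test, Benjamini-Hochberg adjusted p under 0.05 over all genes), and 4 of 10 fell, where 20.3% of genes were called lower. The median log2 fold change of the 10 genes was 0.55, against -0.03 over all genes tested.

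Wnt7a (ENSMUSG00000030093.7, chromosome 6 from 91363981 to 91411363, mm10) encodes a ligand that in brain vessels acts through the surface proteins Reck and Adgra2. It had 114, 141 and 137 CPM in PLD at 2 months, against 5.53, 2.75 and 5.52 CPM in WT. The groups were far apart, and the lowest PLD library stood above the highest WT library by a wide margin. The log2 fold change was 4.85 ± 0.34 (SE, n = 3 and 3, adjusted p = 4.55e-05), the largest rise among the 10 genes. Its close relative Wnt7b (ENSMUSG00000022382.15, chromosome 15 from 85535437 to 85582473) had 168, 157 and 192 CPM in PLD, against 17.2, 11.9 and 7.32 CPM in WT. It too was without overlap, with a log2 fold change of 3.85 ± 0.39 (adjusted p = 0.000115). Wnt10a (ENSMUSG00000026167.14, chromosome 1 from 74791516 to 74804179), a ligand known from teeth, hair and skin glands, had 29.4, 31.0 and 31.9 CPM in PLD, against 2.96, 1.11 and 2.06 CPM in WT. The PLD libraries lay within a narrow band, and the log2 fold change was 3.93 ± 0.35 (adjusted p = 7.82e-05). Wnt11 (ENSMUSG00000015957.12, chromosome 7 from 98835112 to 98855195), a ligand of cell movements in the embryo, had 16.1, 4.61 and 13.9 CPM in PLD, against 2.10, 1.599 and 1.19 CPM in WT. PLD replicate 2 was low, yet above every WT library, and the log2 fold change was 2.84 ± 0.51 (adjusted p = 0.00167).

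Wnt9b (ENSMUSG00000018486.2, chromosome 11 from 103727364 to 103749821), an endothelial ligand of adult liver, had 5.29, 9.87 and 2.74 CPM in PLD, against 166, 243 and 157 CPM in WT. No PLD library came near a WT library. It showed the largest fall of the 10 genes, a log2 fold change of -4.97 ± 0.48 (adjusted p = 9.88e-05). Rspo3 (ENSMUSG00000019880.10, chromosome 10 from 29452416 to 29535867), the R-spondin of central vein endothelium, had 7.56, 11.8 and 5.14 CPM in PLD, against 211, 313 and 233 CPM in WT, with a log2 fold change of -4.94 ± 0.42 (adjusted p = 7.04e-05). Both genes were highest in replicate 2 of PLD and in replicate 2 of WT, the libraries of their groups with the most endothelial marker RNA. Wnt2 (ENSMUSG00000010797.6, chromosome 6 from 17988940 to 18030585), the other endothelial ligand, had 2.85, 4.18 and 5.54 CPM in PLD, against 55.1, 109 and 54.2 CPM in WT. It fell by 4.10 ± 0.50 on the log2 scale (adjusted p = 0.000227), again without overlap. Rspo1 (ENSMUSG00000028871.7, chromosome 4 from 124986430 to 125009099), an R-spondin best known as a mitogen of gut epithelium and for its role in ovary formation, was scarce, with 0.29, 0.64 and 0.44 CPM in PLD (5, 12 and 9 counts) and 4.54, 4.44 and 3.25 CPM in WT (106, 100 and 63 counts). Its log2 fold change was -3.12 ± 0.56 (adjusted p = 0.00179).

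Wnt4 (ENSMUSG00000036856.4, chromosome 4 from 137277489 to 137299726), a ligand of kidney tubule and female duct formation that liver endothelium also makes, had 98.0, 143 and 88.2 CPM in PLD, against 47.6, 57.4 and 54.5 CPM in WT. The groups did not overlap, but the rise was the smallest of the 5, a log2 fold change of 1.06 ± 0.26 (adjusted p = 0.00839). Wnt5a (ENSMUSG00000021994.15, chromosome 14 from 28504750 to 28527448), a mostly stromal ligand, had 22.7, 12.4 and 23.8 CPM in PLD, against 20.7, 24.6 and 13.2 CPM in WT. The groups lay on top of each other, with a log2 fold change of 0.03 (95% interval -0.55 to 0.62, adjusted p = 0.933). All 9 calls at 2 months held under every alternative fit, among them those without WT replicate 1. Markers moved with these genes: 16 of 16 endothelial markers and 7 of 20 fibroblast markers fell, 14 of 20 cholangiocyte markers rose and 1 fell, and 6 of 8 mesothelial markers fell and 2 rose. Of the other lists, 7 of 8 smooth muscle markers fell, 4 of 12 macrophage markers fell and 1 rose, and 5 of 12 hepatocyte markers rose and 3 fell. Over all genes, 19.7% were called higher and 20.3% lower. The part of these markers in the ligand changes was not tested.

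**Figure D1:**
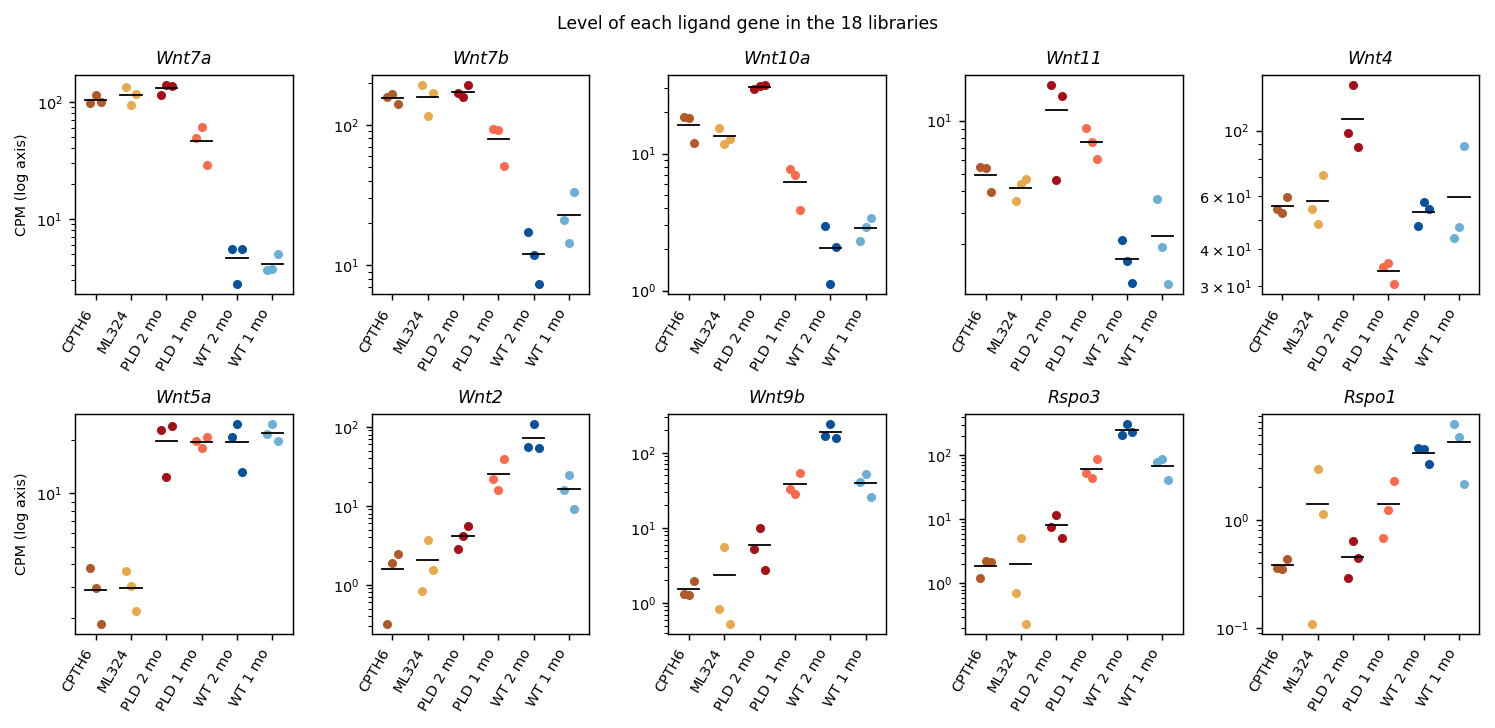
Level of each of the 10 genes in CPM (log axis) in the 18 libraries, by group, with treated PLD on the left and WT on the right; points are libraries and bars are means of 3. Wnt7a, Wnt7b and Wnt10a are high in PLD at 2 months and in treated PLD and low in WT, Wnt2, Wnt9b and Rspo3 run the other way, and Wnt5a is low in the treated groups alone.

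At 1 month, fewer of the 10 genes passed the edgeR test, though DESeq2 called 6 of 10, with 2477 called over all genes. Wnt7a and Wnt7b were already higher in PLD, 2 of 10 genes where 3% of all genes were called higher, and 0 of 10 genes were called lower, where 2.02% of all genes were. Wnt7a had 49.3, 61.2 and 29.0 CPM in PLD, against 3.66, 3.75 and 4.98 CPM in WT, without overlap. Its log2 fold change was 3.47 ± 0.32 (adjusted p = 0.00074). Wnt7b had 93.6, 91.6 and 50.9 CPM in PLD, against 21.1, 14.3 and 33.0 CPM in WT. The gap between the lowest PLD library and the highest WT library was small, and the log2 fold change was 1.77 ± 0.36 (adjusted p = 0.0238). Leaving out 1 library of that time ended the call in 4 cases, with log2 fold changes and adjusted p of 1.63 and 0.109 for PLD replicate 1, 1.65 and 0.11 for PLD replicate 2, 1.70 and 0.0837 for WT replicate 1, and 1.51 and 0.0724 for WT replicate 2. It also ended in a fit of the 1-month libraries alone (1.75, 0.111).

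The endothelial ligands were close between the genotypes at 1 month. Wnt9b had 33.0, 28.7 and 53.3 CPM in PLD, against 41.3, 52.8 and 26.1 CPM in WT. Rspo3 had 52.7, 43.7 and 87.6 CPM in PLD, against 78.3, 89.2 and 41.7 CPM in WT. Wnt2 had 21.9, 15.8 and 38.6 CPM in PLD, against 15.7, 24.4 and 9.03 CPM in WT. In each of these genes the groups overlapped. The log2 fold changes were -0.08 for Wnt9b (95% interval -0.97 to 0.81), -0.20 for Rspo3 (-0.99 to 0.58) and 0.62 for Wnt2 (-0.35 to 1.58), and none passed the test. Endothelial markers summed to 2989 to 5845 CPM in PLD and 2802 to 7403 CPM in WT at this time, with 0 of 16 called.

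A further 4 genes came near the threshold at 1 month without passing it. Wnt10a had 7.70, 7.01 and 3.84 CPM in PLD, against 2.30, 2.90 and 3.37 CPM in WT (log2 fold change 1.09 ± 0.33, adjusted p = 0.0757). Wnt11 had 9.06, 7.59 and 6.08 CPM in PLD, against 3.58, 1.91 and 1.17 CPM in WT (1.75 ± 0.49, adjusted p = 0.0629). The groups did not overlap in either gene. Rspo1 had 0.68, 1.23 and 2.28 CPM in PLD, against 7.62, 5.81 and 2.15 CPM in WT (-1.90 ± 0.51, adjusted p = 0.0548). PLD replicate 3 and WT replicate 3 overlapped there. Wnt4 had 34.7, 35.9 and 30.4 CPM in PLD, against 43.6, 47.3 and 88.4 CPM in WT (-0.85 ± 0.26, adjusted p = 0.0812), opposite in sign to its change at 2 months. Wnt5a had 19.8, 17.9 and 20.6 CPM in PLD, against 21.6, 24.6 and 19.7 CPM in WT (-0.20, 95% interval -0.78 to 0.39). WT replicate 3 is the library with more cholangiocyte and fewer fibroblast, endothelial and smooth muscle markers than its group. Without it, Wnt10a (1.23, adjusted p = 0.0368) and Rspo1 (-2.27, 0.00526) passed, and the count over all genes was 3485 in place of 892. Without PLD replicate 3 the same 2 genes passed, Wnt10a at 1.34 (0.038) and Rspo1 at -2.44 (0.0362). Leaving out PLD replicate 1 gave 114 genes over all, PLD replicate 2 gave 99, WT replicate 1 gave 293 and WT replicate 2 gave 274.

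**Figure D2:**
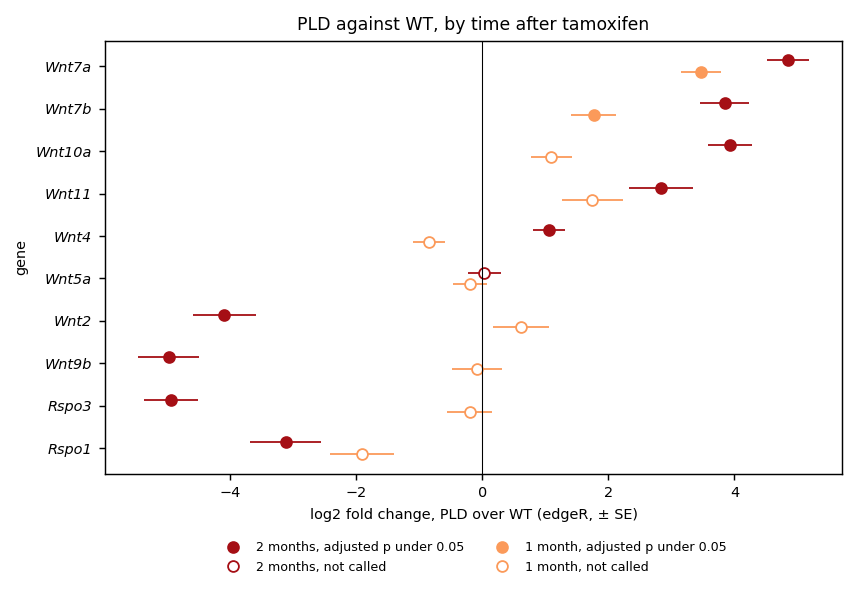
Log2 fold change of PLD over WT for each gene (edgeR, horizontal bars are SE), dark for 2 months and light for 1 month after tamoxifen, filled where the adjusted p was under 0.05. At 2 months 9 of 10 genes are filled and at 1 month Wnt7a and Wnt7b are, and the points of Wnt2, Wnt9b and Rspo3 lie at 0.62, -0.08 and -0.20 at 1 month and at or below -4.10 at 2 months.

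Within PLD, from the same libraries, 2 months were compared with 1 month. Wnt10a, Wnt4 and Wnt7a rose (3 of 10 genes, with 4.38% of all genes called higher), and Rspo3, Wnt9b and Wnt2 fell (3 of 10, with 5.23% of all genes called lower). Wnt10a rose by 2.34 ± 0.33 (adjusted p = 0.00817), Wnt4 by 1.72 ± 0.26 (0.00988) and Wnt7a by 1.51 ± 0.29 (0.0166) on the log2 scale. The log2 fold changes of the falling genes were -2.90 ± 0.39 for Rspo3 (0.00758), -2.67 ± 0.44 for Wnt9b (0.0119) and -2.57 ± 0.47 for Wnt2 (0.0155). In all 6 of these genes the 3 libraries of 2 months lay apart from the 3 of 1 month. The 6 were called from these same libraries, so that separation adds no further support. Wnt7b was not called at 1.15 ± 0.35 (0.0603), nor were Wnt11 at 0.63 ± 0.46, Rspo1 at -1.57 ± 0.57 (0.0973) and Wnt5a at 0.04 ± 0.27. DESeq2 called Wnt7b (adjusted p = 0.016) and Rspo1 (0.0429) as well, and a fit of the PLD libraries alone called Wnt7b (0.0151). The call for Wnt2 ended without PLD replicate 1 of 2 months (-2.36, 0.0513) and without PLD replicate 3 of 1 month (-2.14, 0.062). That for Wnt4 ended without PLD replicate 3 of 1 month (1.66, 0.0517), and that for Wnt7a without PLD replicate 3 of 2 months (1.49, 0.0567) and without PLD replicate 1 or 3 of 1 month (1.55, 0.0577; 1.26, 0.0614). The test called 1706 of all genes in this comparison, and 135 to 644 when any single library was left out. Endothelial markers moved with the falling genes, with 15 of 16 lower at 2 months than at 1 month, and 1 of 20 cholangiocyte markers was higher. Smooth muscle markers were lower in 5 of 8 cases, and of 8 mesothelial markers 3 were lower and 2 higher; the part of these markers was not tested.

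In WT, 0 of 10 genes passed the test between 2 months and 1 month, where 0.0113% of genes were called higher and 0.0394% lower. The endothelial ligands had the largest values, with log2 fold changes of 2.22 ± 0.42 for Wnt9b (adjusted p = 0.0895), 2.14 ± 0.45 for Wnt2 (0.0928) and 1.84 ± 0.37 for Rspo3 (0.0928). For each of these, the WT libraries of 2 months stood above all 3 of 1 month. By edgeR, 4 of the 10 genes had an unadjusted p under 0.05, where 2674 of all 17749 genes did. DESeq2 called 3 of the 10, where it called 827 over all genes. Without WT replicate 3 of 1 month, Wnt9b (1.99, 0.0452) and Rspo3 (1.57, 0.0483) passed, and 389 of all genes were called in place of 9; without WT replicate 2 of 1 month it was 97. The 16 endothelial markers had a median of 1.14 in this comparison, and 0 were called.

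The change with time was therefore tested for a difference between genotypes. The interaction, the log2 fold change of 2 months over 1 month in PLD minus that in WT, was positive for Wnt10a, Wnt7b and Wnt4 (3 of 10, with 2.55% of all genes called higher) and negative for Wnt9b, Rspo3 and Wnt2 (3 of 10, with 3.13% called lower). It was -4.89 ± 0.61 for Wnt9b (adjusted p = 0.00768), -4.74 ± 0.54 for Rspo3 (0.00768) and -4.71 ± 0.65 for Wnt2 (0.01). It was 2.83 ± 0.47 for Wnt10a (0.016), 2.08 ± 0.50 for Wnt7b (0.0403) and 1.91 ± 0.37 for Wnt4 (0.0212). Wnt7a did not pass at 1.37 ± 0.42 (0.0816), and Wnt11 (1.09), Rspo1 (-1.21) and Wnt5a (0.23) did not either. Wnt7a was called with DESeq2 (1.38, 0.0263) and by edgeR without a filter on low counts (1.36, 0.0011). The Wnt4 call ended without WT replicate 2 of 2 months (2.00, 0.0601) and without PLD replicate 1 (1.93, 0.0581) or 3 (1.85, 0.0653) of 1 month. The Wnt7b call ended when any of 9 libraries was left out, all but WT replicate 1 of 2 months and WT replicates 2 and 3 of 1 month, with log2 values between 1.83 and 2.23 and adjusted p up to 0.1. Over all genes the interaction was called in 1008 genes, and in 100 to 1413 with 1 library left out. Endothelial markers showed an interaction in the same direction as Wnt9b, Rspo3 and Wnt2 in 14 of 16 cases, and cholangiocyte markers a positive one in 2 of 20.

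Set against each other per kilobase of exon (RPKM), the transcripts show which ligands made up the Wnt output. The 19 Wnt genes of the mouse summed to 135 ± 7.36 RPKM in PLD at 2 months and 77.8 ± 6.15 in PLD at 1 month, against 100.4 ± 24.0 in WT at 2 months and 47.7 ± 2.96 in WT at 1 month (mean ± SD, n = 3). The composition differed more than the sum. Wnt7a, Wnt7b, Wnt10a and Wnt11 together held 67.9% ± 4.31 of the sum in PLD at 2 months and 44.5% ± 11.0 in PLD at 1 month, against 5.40% ± 2.25 in WT at 2 months and 16.1% ± 4.44 in WT at 1 month. Wnt2 and Wnt9b held 2.34% ± 0.48 in PLD at 2 months and 26.1% ± 13.03 in PLD at 1 month, against 72.9% ± 6.49 in WT at 2 months and 33.8% ± 12.7 in WT at 1 month. By gene, Wnt7a was the most abundant ligand of PLD at 2 months, with 41.2 ± 4.56 RPKM, followed by Wnt7b with 35.2 ± 3.66 and Wnt4 with 26.2 ± 6.95. In WT at 2 months the order was Wnt9b with 41.8 ± 10.5 RPKM, Wnt2 with 32.3 ± 13.99 and Wnt4 with 12.7 ± 1.19. In WT at 1 month Wnt4 had the highest mean, 14.3 ± 5.93, with 10.4, 11.3 and 21.1 RPKM in replicates 1, 2 and 3. That lead rested on replicate 3, and in replicate 2 Wnt9b stood above Wnt4 at 11.7 RPKM. The mean share of Wnt4 ran from 10.3% in PLD at 1 month to 29.7% in WT at 1 month, where single libraries spanned 22.6% to 43.2%. Rspo3 exceeded Rspo1 in each untreated group, with 2.64 ± 1.08 against 0.24 ± 0.09 RPKM in PLD at 2 months and 81.7 ± 17.2 against 2.10 ± 0.37 RPKM in WT at 2 months.

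**Figure D3:**
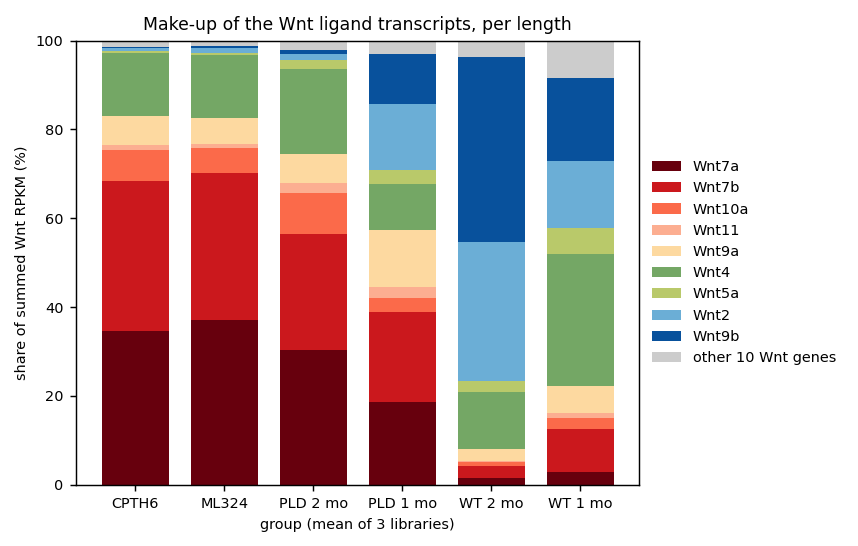
Share of each Wnt gene in the summed RPKM of the 19 Wnt genes (%), mean of 3 libraries per group. The red shades (Wnt7a, Wnt7b, Wnt10a, Wnt11) fill 67.9% of the bar in PLD at 2 months and 5.40% in WT at 2 months, where the blue shades (Wnt2, Wnt9b) fill 72.9%. Red genes were called higher and blue genes lower in PLD at 2 months in these same libraries.

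After treatment, the ligands that were high in PLD parted ways. Wnt7a and Wnt7b were not called and stayed near their untreated level in CPM, Wnt10a, Wnt4 and Wnt11 were lower, and Wnt5a was much lower. In both comparisons with untreated PLD at 2 months 0 of 10 genes rose, where 9.39% of 16502 genes were called higher after CPTH6 and 7.96% after ML324. The same 4 genes fell in both (4 of 10), where 13.7% of genes were called lower after CPTH6 and 11.4% after ML324. Both comparisons share the same 3 untreated libraries, so their likeness is no second observation. The labels describe library making for the treated mice apart from that for the untreated mice and give them a later month, so compound, age and library run cannot be told apart.

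Wnt5a had 3.83, 2.94 and 1.86 CPM after CPTH6 and 3.66, 3.03 and 2.18 CPM after ML324, against 22.7, 12.4 and 23.8 CPM in untreated PLD. No treated library reached the lowest untreated library. The log2 fold change was -2.77 ± 0.34 after CPTH6 (adjusted p = 0.000838) and -2.68 ± 0.35 after ML324 (0.00143). Stellate cell and fibroblast markers fell with it, 20 of 20 in both comparisons with medians of -3.44 and -2.82, to summed levels of 438.3 to 522.2 CPM after CPTH6 and 357.1 to 1146 CPM after ML324, against 3997 to 8314 CPM in untreated PLD. Their part in the fall of Wnt5a was not tested. Wnt10a had 18.4, 18.1 and 11.9 CPM after CPTH6 and 15.4, 11.8 and 12.9 CPM after ML324, against 29.4, 31.0 and 31.9 CPM untreated. The log2 fold changes were -0.93 ± 0.17 after CPTH6 (0.00536) and -1.15 ± 0.18 after ML324 (0.00282), without overlap. Wnt4 had 54.3, 52.9 and 59.7 CPM after CPTH6 and 54.4, 48.6 and 71.1 CPM after ML324, against 98.0, 143 and 88.2 CPM untreated. The log2 fold changes were -0.97 ± 0.19 after CPTH6 (0.00674) and -0.86 ± 0.19 after ML324 (0.0138), and WT at 2 months had 53.2 ± 5.00 CPM; the ML324 call ended without ML324 replicate 1 (-0.80, 0.0516). Wnt11 had 5.45, 5.41 and 3.95 CPM after CPTH6 and 3.49, 4.34 and 4.66 CPM after ML324, against 16.1, 4.61 and 13.9 CPM untreated. Untreated PLD replicate 2 lay among the treated libraries, and the changes of -1.22 ± 0.39 (0.0491) and -1.42 ± 0.40 (0.0348) were the weakest calls. They ended without any treated library of their own and without PLD replicate 1 (-0.90, 0.162, after CPTH6; -1.10, 0.112, after ML324) or PLD replicate 3 (-1.06, 0.142; -1.26, 0.102). They also ended in fits of only the groups compared (adjusted p = 0.0765 after CPTH6 and 0.0783 after ML324), and the CPTH6 call ended with the size factors of DESeq2 (0.0546).

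Wnt7a had 97.3, 114 and 98.9 CPM after CPTH6 and 134, 93.2 and 117 CPM after ML324, against 114, 141 and 137 CPM untreated. The 95% intervals of its log2 fold change were -0.65 to -0.01 after CPTH6 (adjusted p = 0.122) and -0.45 to 0.19 after ML324 (0.557). Wnt7b had 158, 166 and 141 CPM after CPTH6 and 194, 116 and 167 CPM after ML324, against 168, 157 and 192 CPM untreated. The intervals were -0.54 to 0.24 and -0.45 to 0.33. Treated and untreated libraries overlapped in both genes, and a fall by 1 on the log2 scale lies outside each of these intervals. Together, Wnt7a, Wnt7b, Wnt10a and Wnt11 held 76.6% ± 2.27 of the summed Wnt RPKM after CPTH6 and 76.8% ± 3.11 after ML324, against 67.9% ± 4.31 untreated. Among these 4, the mean shares of Wnt7a (34.7% and 37.1%, against 30.4%) and Wnt7b (33.7% and 33.0%, against 26.1%) were higher. Those of Wnt10a (6.94% and 5.58%, against 9.24%) and Wnt11 (1.27% and 1.06%, against 2.10%) were lower. The sum itself was 93.8 ± 5.58 RPKM after CPTH6 and 97.4 ± 16.0 after ML324, against 135 ± 7.36 untreated, with every treated library below every untreated library.

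The endothelial ligands were low in PLD at 2 months and low in the treated groups. Endothelial markers were called lower than in untreated PLD in 7 of 16 cases after CPTH6 (median -1.77) and 2 of 16 after ML324 (median -1.40). Smooth muscle markers were lower in 6 of 8 and 3 of 8 cases. Over all genes, 13.7% and 11.4% were called lower. The part of these markers was not tested. Wnt9b had 1.33, 1.29 and 1.94 CPM after CPTH6 and 0.83, 5.64 and 0.53 CPM after ML324, against 5.29, 9.87 and 2.74 CPM untreated. Rspo3 had 1.21, 2.23 and 2.17 CPM after CPTH6 and 0.72, 5.05 and 0.24 CPM after ML324, against 7.56, 11.8 and 5.14 CPM untreated. Wnt2 had 0.32, 1.88 and 2.49 CPM after CPTH6 and 0.83, 3.74 and 1.53 CPM after ML324, against 2.85, 4.18 and 5.54 CPM untreated. None of these passed the edgeR test as reported here, with log2 fold changes of -2.11 for Rspo3, -1.96 for Wnt9b and -1.42 for Wnt2 after CPTH6, and -1.98 for Rspo3 and -1.31 for Wnt9b after ML324. ML324 replicate 2, with more endothelial marker RNA than the others, was the high ML324 library in all 3 genes. Without it, Rspo3 (-4.00, adjusted p = 0.00154) and Wnt9b (-3.05, 0.00751) passed after ML324. After CPTH6 a fit of only the groups compared called Rspo3 (-2.08, 0.00603) and Wnt9b (-1.93, 0.0208), and DESeq2 called Wnt9b (0.0318). Rspo1 had 0.36, 0.35 and 0.43 CPM after CPTH6 and 0.11, 2.91 and 1.121 CPM after ML324, and was not called (-0.25 and 1.61); without ML324 replicate 1 the ML324 value was 2.18 (0.0272).

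**Figure D4:**
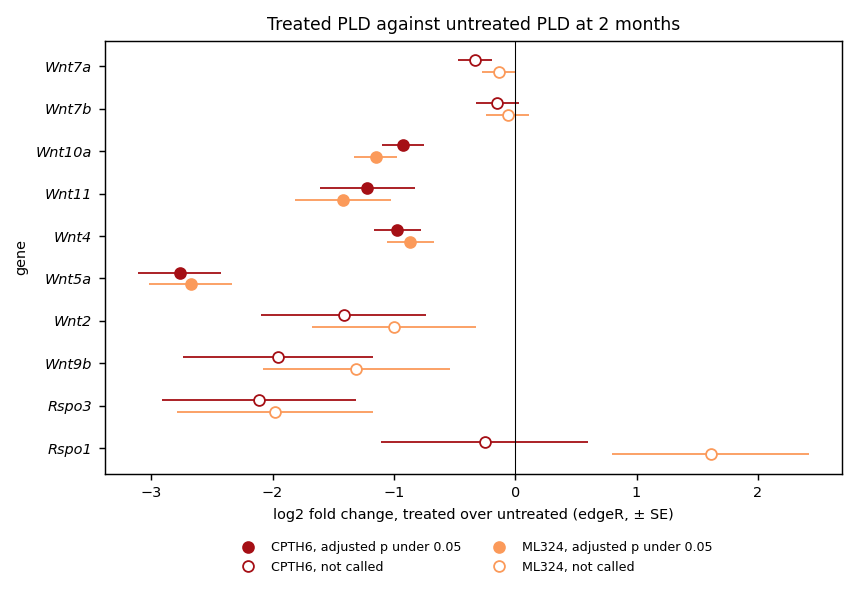
Log2 fold change of CPTH6-treated (dark) and ML324-treated (light) PLD over untreated PLD at 2 months for each gene (edgeR, horizontal bars are SE), filled where the adjusted p was under 0.05. Wnt5a, Wnt11, Wnt10a and Wnt4 are filled for both compounds, and Wnt7a and Wnt7b lie close to 0 for both.

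The compounds were then set against each other. Of 15989 genes tested, edgeR called 0% higher and 0% lower with CPTH6 than with ML324, and 0 of the 9 ligand genes tested were called; Rspo1 had too few counts to be tested. At an unadjusted p under 0.05 there were 2008 genes, 0 of them ligand genes, and DESeq2 called 299 genes, again with 0 ligand genes. The 95% interval of CPTH6 over ML324 on the log2 scale was -0.53 to 0.13 for Wnt7a, -0.51 to 0.33 for Wnt7b, -0.45 to 0.23 for Wnt4 and -0.23 to 0.68 for Wnt10a. For Wnt5a it was -0.89 to 0.71, and for Wnt11 it was -0.35 to 0.75. The scarce endothelial ligands allowed wide differences, with intervals of -2.45 to 1.15 for Wnt9b, -2.13 to 1.88 for Rspo3 and -2.11 to 1.28 for Wnt2.

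Taken over all 6 groups, the spread of levels differed strongly between the genes. The highest group mean exceeded the lowest 135-fold for Rspo3, 124-fold for Wnt9b and 46.6-fold for Wnt2, each with WT at 2 months on top and CPTH6 at the bottom. It exceeded it 31.6-fold for Wnt7a, 15.1-fold for Wnt10a and 14.2-fold for Wnt7b, each with PLD at 2 months on top and WT at the bottom, 13.5-fold for Rspo1, 7.63-fold for Wnt5a and 7.07-fold for Wnt11. Wnt4 varied least, 3.26-fold. Neighbours in these orders often overlapped. For Wnt7a, PLD at 2 months, ML324 and CPTH6 overlapped in turn, PLD at 1 month (46.5 ± 16.3 CPM) stood alone below them, and WT at 2 months (4.599 ± 1.599) and at 1 month (4.13 ± 0.74) overlapped at the bottom. For Wnt9b, WT at 2 months (189 ± 47.5 CPM) stood alone, PLD at 1 month (38.3 ± 13.1) and WT at 1 month (40.1 ± 13.4) overlapped, and PLD at 2 months (5.97 ± 3.61), ML324 and CPTH6 overlapped in turn. For Wnt5a the 4 untreated groups, from 19.4 ± 1.38 to 22.0 ± 2.48 CPM, overlapped in turn and stood above both treated groups.

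Because markers of several cell types moved between groups, each gene was also read beside the marker means of the same libraries. The distance is log2 CPM of the gene minus the mean log2 CPM of the list. From the endothelial mean, Wnt9b was at -2.88 ± 0.30 in PLD at 2 months and at -1.29 ± 0.20 in WT at 2 months, and Rspo3 was at -2.33 ± 0.20 in PLD and -0.86 ± 0.19 in WT (SD, n = 3). The fall of both genes was thus larger than that of the marker mean, and the endothelial markers themselves had a median change of -3.27. For Wnt2 the distances, -3.24 ± 0.92 in PLD and -2.72 ± 0.17 in WT, overlapped. From the cholangiocyte mean, Wnt7a was at -1.55 ± 0.17 in PLD at 2 months and -2.83 ± 0.36 in PLD at 1 month, against -4.70 ± 0.23 in WT at 2 months and -5.25 ± 0.37 in WT at 1 month. The rise of Wnt7a was larger than that of the cholangiocyte markers, whose median change at 2 months was 1.94. Wnt7b was at -1.15 ± 0.15 from that mean in PLD and -3.34 ± 0.80 in WT at 2 months, and Wnt10a at -3.62 ± 0.06 in PLD and -5.87 ± 0.44 in WT. In neither did the groups overlap. The other genes called higher in PLD at 2 months did not follow this: Wnt4 was further from the cholangiocyte mean in PLD, at -1.83 ± 0.36, than in WT, at -1.14 ± 0.45, and Wnt11 overlapped, at -5.22 ± 0.97 in PLD and -6.12 ± 0.59 in WT. At 1 month Wnt10a was at -5.72 ± 0.30 in PLD and -5.77 ± 0.44 in WT, with overlap. From the fibroblast mean, Wnt5a was at -2.02 ± 0.51 after CPTH6 and -2.20 ± 1.10 after ML324, against -2.66 ± 0.41 in untreated PLD at 2 months, with overlap. From the cholangiocyte mean, Wnt7a was at -1.99 ± 0.04 after CPTH6, lower than in every untreated PLD library of 2 months. After ML324 it was at -1.82 ± 0.22, with overlap. Wnt7b, at -1.41 ± 0.14 after CPTH6 and -1.36 ± 0.33 after ML324, overlapped the untreated libraries in both. The cholangiocyte list itself moved with treatment. Of its 19 genes tested, 7 were called higher and 2 lower after CPTH6, where 9.39% and 13.7% of all genes were. After ML324, 2 were called higher and 0 lower, where 7.96% and 11.4% of all genes were.

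Differences between libraries of the same group were described in the same way, as Pearson's r of log2 CPM after centring each group on its mean, over 18 libraries that share their depth and make-up of cells with the markers. Wnt9b and Rspo3 followed each other (r = 0.95) and the endothelial markers (0.90 and 0.88). Wnt7a followed Wnt10a (0.85) and the cholangiocyte markers (0.72), and Rspo1 the mesothelial markers (0.82). Wnt4 ran against the smooth muscle (-0.76) and fibroblast markers (-0.73) and with the cholangiocyte (0.62) and hepatocyte markers (0.60). WT replicate 3 at 1 month weighs on these Wnt4 values. Its log2 CPM of Wnt4 was 6.47, against 5.45 and 5.57 in its group, and its fibroblast mean was 5.69, against 8.25 and 8.38. Wnt5a followed no list closely, with 0.22 for fibroblast markers. Among 10013 genes with a mean of at least 10 CPM, the genes nearest to Wnt9b were Pcdh17 (r = 0.96), Clec1a (0.95) and Calcrl (0.95), and those nearest to Rspo3 were Pcdh17 (0.97), Calcrl (0.94) and Fmo1 (0.94). Nearest to Wnt7a were Scel (0.90), Ubtd2 (0.89) and Tubb2b (0.85), to Wnt7b Kif23 (0.95), Smpd3 (0.92) and Igsf8 (0.92), and to Wnt4 Klc4 (0.94), Ivns1abp (0.92) and Kif1b (0.90). For Wnt5a they were Flrt2 (0.88), Cxcl5 (0.86) and Plagl1 (0.85), for Wnt10a Dio3 (0.85), Tubb2b (0.85) and Myo1e (0.83), for Wnt11 Hmga1b (0.88), Ncam1 (0.87) and Artn (0.85), for Wnt2 Ppp1r16b, Arhgdib and Slc25a45 (each 0.86), and for Rspo1 Adgrd1 (0.92), Rarres2 (0.90) and Pde1a (0.89).

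**Figure D5:**
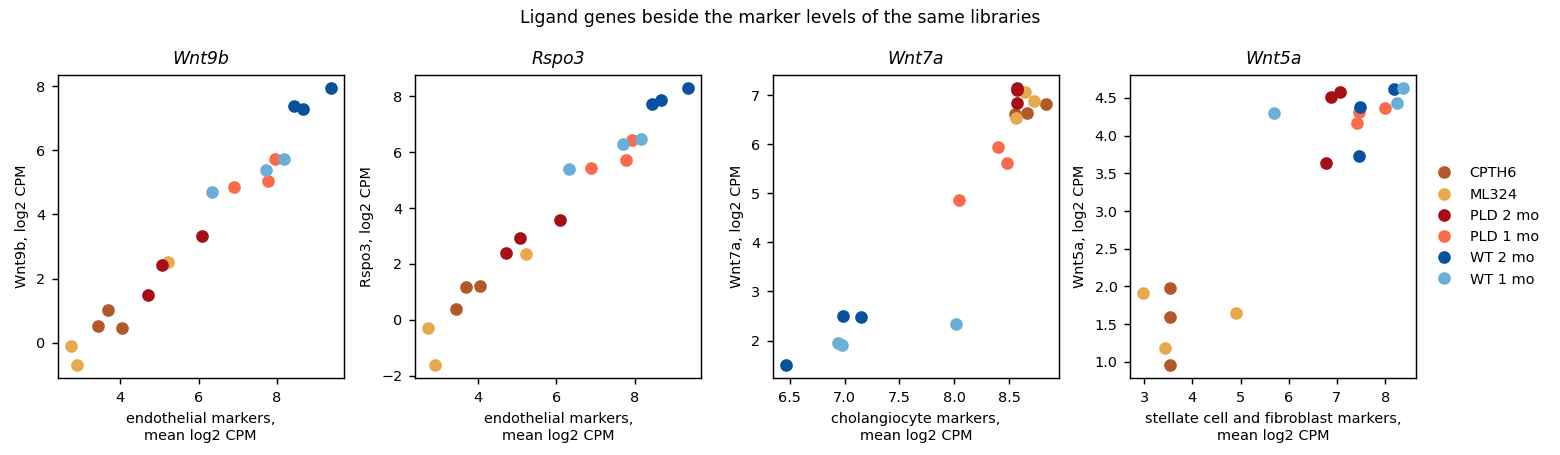
Log2 CPM of Wnt9b, Rspo3, Wnt7a and Wnt5a in each library (vertical axes) against the mean log2 CPM of a marker list in the same library (horizontal axes), with endothelial markers for Wnt9b and Rspo3, cholangiocyte markers for Wnt7a and stellate cell and fibroblast markers for Wnt5a. Wnt9b and Rspo3 rise with the endothelial markers through all groups, and the WT libraries of Wnt7a lie below every PLD library.

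The 13 remaining ligands and R-spondins of the mouse were mostly scarce, and 5 of them were tested among untreated libraries. At 2 months 2 of 5 were higher in PLD and 0 lower, where 19.7% of all genes were called higher and 20.3% lower. Wnt9a, a ligand of limb and joint formation, had 29.2 ± 2.29 CPM in PLD and 7.97 ± 1.91 CPM in WT (log2 fold change 1.89 ± 0.24, adjusted p = 0.000288), and was also higher at 1 month (1.78 ± 0.24, 0.00527), with 33.7 ± 11.0 CPM in PLD and 9.64 ± 1.115 CPM in WT. Like Wnt7a and Wnt7b, it was called at both times. Wnt16 was higher at 2 months (2.41 ± 0.68, 0.0164) at a low level, 2.48 ± 0.82 CPM in PLD and 0.47 ± 0.26 CPM in WT. Rspo2 stayed at or under 0.47 CPM and Rspo4 at or under 0.69 CPM in every library. After CPTH6 and after ML324, Wnt16 (-3.91 and -2.61), Wnt6 (-2.49 and -2.83) and Wnt9a (-0.54 and -0.60) were lower than in untreated PLD, 3 of 5 tested, and 0 were higher. Over all genes, 13.7% were called lower after CPTH6 and 11.4% after ML324.

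Among the receptors and their regulators, 6 of 21 tested rose and 6 fell in PLD at 2 months, with a median log2 fold change of -0.18; over all genes 19.7% were called higher and 20.3% lower, so neither share stood far from the background. Fzd1, a Frizzled receptor, rose most clearly, with 349 ± 52.1 CPM in PLD and 52.9 ± 5.57 CPM in WT (2.74 ± 0.19, adjusted p = 4.55e-05), and was the receptor called higher at 1 month as well (1.55 ± 0.19, 0.00289). Fzd6 (-1.70 ± 0.14, 5.88e-05), Fzd4 (-1.58 ± 0.24, 0.000687) and the co-receptor gene Lrp5 (-1.08 ± 0.18, 0.00132) fell. The R-spondin receptor gene Lgr4 rose (1.15 ± 0.23, 0.00311), with 55.4 ± 7.04 CPM in PLD and 25.2 ± 2.81 CPM in WT, as did the genes of the ligases that R-spondins remove, Rnf43 (1.26 ± 0.36, 0.0176) and Znrf3 (0.91 ± 0.25, 0.0138). Adgra2, the partner of Wnt7a and Wnt7b in brain vessels, was lower in PLD (-1.15 ± 0.36, 0.0278). Lgr4, Rnf43, Znrf3, Adgra2 and, further on, Porcn were named for their roles after their values were seen. Against untreated PLD, 5 of 20 fell after CPTH6, where 13.7% of all genes did, and 8 of 20 after ML324, where 11.4% did, with 0 higher. Among them were Fzd1 (-2.60 ± 0.19 and -2.83 ± 0.19), Reck (-3.32 ± 0.31 and -2.87 ± 0.31), Adgra2 (-3.00 ± 0.29 and -2.64 ± 0.29) and Ror2, a receptor of Wnt5a (-3.15 ± 0.36 and -2.69 ± 0.36).

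Of the genes for secretion and extracellular inhibition, 5 of 18 rose and 5 fell in PLD at 2 months, again not far from the 19.7% and 20.3% of all genes. Wls, the carrier of every Wnt protein, rose by 0.98 ± 0.16 (adjusted p = 0.00108) and was called at 1 month too (0.76 ± 0.16, 0.0273), and Porcn rose by 0.79 ± 0.21 at 2 months (0.0135). The secreted inhibitor genes Sfrp5 (-3.19 ± 0.25, 5.59e-05) and Sostdc1 (-3.45 ± 0.53, 0.000698) fell, Sfrp5 also at 1 month (-2.30 ± 0.23, 0.00132). After each compound 10 of 14 were lower than in untreated PLD and 0 higher, where 13.7% of all genes were called lower after CPTH6 and 11.4% after ML324. Of the feedback targets of the pathway, 7 of 11 rose in PLD at 2 months and 0 fell, where 19.7% and 20.3% of all genes did, with a median of 1.118 against -0.03 over all genes. Of the 12 genes listed, 6 also stand in the lists above, Lgr5, Znrf3 and Rnf43 among the receptors and Notum, Apcdd1 and Dkk4 among the inhibitors, so these counts are not separate. Axin2 had 41.6 ± 11.46 CPM in PLD and 10.5 ± 1.85 CPM in WT (2.01 ± 0.31, 0.000695), and Notum, which strips the lipid from Wnt proteins, had 13.7 ± 4.93 CPM in PLD and 0.64 ± 0.60 CPM in WT (4.40 ± 0.71, 0.00098). Tcf7 (1.118 ± 0.24, 0.00438) and Nkd2 (2.67 ± 0.59, 0.00502) rose as well. At 1 month Tcf7 (1.07 ± 0.24, 0.0327) and Axin2 (1.21 ± 0.30, 0.0451) were called higher, 2 of 11, where 3% of all genes were. After each compound 7 of 9 were lower than in untreated PLD and 0 higher, beside the same 13.7% and 11.4% of all genes called lower. The medians were -2.97 after CPTH6 and -2.67 after ML324. Axin2 had 3.90 ± 1.25 CPM after CPTH6 and 4.76 ± 1.56 CPM after ML324. Wnt7a and Wnt7b showed no such fall in the same libraries, and 20 of 20 fibroblast markers were lower in them; the part of either in the fall of the targets was not tested.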

How the data were processed

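The deposited files give counts per gene: read pairs were aligned to mm10 with STAR 2.7.4a and handled with SAMtools 1.12, per the submitters' processing notes, and counted on GENCODE exons with featureCounts 1.6.0 without strand or multi-mapping reads, per the file headers. The submitters' processing notes also name DESeq2 1.26.0. Reads of overlapping or antisense genes therefore cannot be assigned by strand. Of 55401 genes, 55141 were given a symbol from an annotation table.

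Groups came from the labels. edgeR 4.0.16 in R 4.3.3 (filterByExpr, TMM, quasi-likelihood F-test, Benjamini-Hochberg adjustment over all genes tested, adjusted p under 0.05) was run on the deposited counts in 3 fits: the 12 untreated libraries, the 6 treated libraries, and the treated libraries with PLD at 2 months. SE is the absolute log2 fold change over the square root of F. CPM used TMM-scaled library sizes, log2 CPM a prior count of 2, and RPKM the exon length in the files. Marker distances and correlations are descriptions. The tests were also tried on simulated data with known changes. There, 2-fold changes were called in 6.52% of cases for the interaction and in 33.3% to 54.6% for the other comparisons. For 4-fold changes it was 64.8% for the interaction and 78.3% to 89.4% for the others. A gene not called may therefore still differ. Alternatives were other size factors, no filter on low counts, DESeq2 1.42.0, only the groups compared, the replicate number as a block, and each library left out. No 2 libraries of a group held identical values.

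The 10 genes and all lists were chosen with earlier results of these data known. All 10 are named in every comparison, and from each pathway list up to 4 called genes with the smallest adjusted p, beside those said to be chosen later. Promoter windows came from RefSeq on GRCm38.p6, by symbol.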

Additional observations from a re-analysis of the deposited data

Results flagged for a closer look

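For 6 of the 10 genes the effect of genotype differed between the times after tamoxifen, by the edgeR interaction test with adjustment over all genes. Over all genes tested, 2.55% were called higher and 3.13% lower. The log2 fold change of PLD over WT at 2 months minus that at 1 month was -4.89 for Wnt9b, -4.74 for Rspo3 and -4.71 for Wnt2. It was 2.83 for Wnt10a, 2.08 for Wnt7b and 1.91 for Wnt4. The call ended under 10 of 16 alternatives for Wnt7b and under 3 of 16 for Wnt4. For Wnt4 the genotype effect had opposite signs, 1.06 at 2 months and -0.85 at 1 month, and the 1-month value did not pass the test. Endothelial markers had a median interaction of -2.95 and cholangiocyte markers of 1.124, and their part in these differences was not tested.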

How the results depend on the processing

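Of the member values under the alternatives, 797 kept direction and side of the threshold, 40 lost the call, 42 gained it and 30 changed sign, none of these last called. The 9 calls at 2 months held throughout. The causes of the moves were not tested. For PLD against WT at 1 month, 892 genes became 2194 without a filter, 2477 with DESeq2, 29 with only the groups compared and 99 to 3485 with a library left out; the 2 ligand calls became 6, 6, 1 and 1 to 4. For 2 months against 1 month in PLD, 1706 became 2818, 3480, 3811, 965 with the replicate block and 135 to 644 with a library left out, where 6 ligand calls became 3 to 6 with a library left out, 8 without a filter, 8 with DESeq2 and 7 with only the groups compared. In WT, 9 became 1224, 827, 0, 0 and 0 to 389, and 0 ligand calls became 4 without a filter, 3 with DESeq2 and 0 to 2. For the interaction, 1008 became 2282 without a filter, 2343 with DESeq2, 426 with the block and 100 to 1413. For CPTH6 against ML324, 0 became 232, 299, 1 and 0 to 3. Against untreated PLD, with a library left out, 3818 genes became 2490 to 3284 after CPTH6 and 3203 became 1939 to 3043 after ML324; DESeq2 called 4426 and 3860. The 4 ligand calls became 7 without a filter for each compound, and after CPTH6 5 with DESeq2 or only the groups compared. Replicate numbers did not pair the libraries: same-numbered deviations correlated at 0.30, 0.19 and -0.09 between CPTH6 and ML324, and in no comparison were all above 0.1. The block ended the Wnt7b interaction (2.11, adjusted p = 0.0743) and both Wnt11 calls (-1.13, 0.0843, after CPTH6; -1.33, 0.0604, after ML324), and called Wnt2 after CPTH6 (-1.67, 0.0457) and Rspo3 after ML324 (-2.42, 0.0422); no other ligand call changed. With it Wnt9b at 1 month was 0.029 and Rspo3 between compounds 0.55. With a library left out, Wnt5a spanned -0.17 to 0.32 at 2 months, -0.12 to 0.29 over time in PLD and -0.41 to 0.018 in WT. At 1 month Wnt9b spanned -0.40 to 0.16 and Rspo3 -0.55 to 0.013. Over time in WT, Wnt4 spanned -0.41 to 0.21, Wnt7a -0.023 to 0.39 and Wnt11 -0.76 to 0.028. Between compounds, Wnt2 spanned -0.93 to 0.36, Wnt4 -0.22 to 0.071, Wnt5a -0.36 to 0.14, Wnt7b -0.27 to 0.093, Wnt9b -1.11 to 1.10 and Rspo3 -0.65 to 1.90. Rspo1 spanned -0.48 to 0.056 after CPTH6, and after ML324 Wnt7a spanned -0.24 to 0.0041 and Wnt7b -0.21 to 0.13. Counts as low as 2 per library limit Rspo1.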
